A study of Mus musculus with 24 samples.

Results

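The genes described are 40 enzymes and regulators of pyruvate entry into mitochondria, the tricarboxylic acid (TCA) cycle and mitochondrial fatty acid oxidation. They were chosen by name, and every probe set whose annotation gives exactly 1 of these symbols was taken: 88 of the 35041 probe sets with 1 symbol on both array designs. Of the 40 genes, 38 had at least 1 probe set bright enough to be tested. The material was RNA from the mouse myoblast line C2C12, hybridised to Affymetrix arrays of 2 designs, called MA and MB in the titles. All cells had been transduced with the pSuperR vector, either empty or with a short hairpin RNA (shRNA) against p68, the RNA helicase encoded by Ddx5. Each kind of cell was cultured either in growth medium (GM) or in differentiation medium (DM), which gives 4 groups of 3 arrays on each design: GM vector, DM vector, GM shRNA and DM shRNA. The title names muscle differentiation under RNA interference against p68 and p72, and the labels name a hairpin against p68 only. The labels do not state whether the replicates came from independent cultures; if they did not, the p-values cover technical spread alone.

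The pyruvate dehydrogenase complex turns pyruvate from glycolysis into acetyl-CoA, and its kinases switch it off by phosphorylation. Acetyl-CoA from pyruvate or from beta-oxidation of fatty acids then enters the TCA cycle, whose reduced cofactors feed the respiratory chain. Muscle moves between glucose and fatty acids as fuel largely through the kinases and through carnitine palmitoyltransferase, the gate for long-chain fatty acids. When myoblasts leave the cell cycle and fuse into myotubes, mitochondrial content and oxidative capacity are known to increase.

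Each value is an array signal on a linear scale, scaled by the submitters to a trimmed mean near 150.1. Changes are differences of log2(signal + 15) with their standard error, fitted with limma over the 12 arrays of a design. A gene is said to have risen or fallen where the Benjamini-Hochberg adjusted p was under 0.05. A gene is represented by its MA probe set with the highest mean signal, and levels of different genes are not compared, since probe sets differ in brightness. A change in cells of one kind cannot be told apart from a change in RNA per cell in these bulk samples.

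The promoters of the pyruvate dehydrogenase complex and of its kinases are shown first, because all 4 complex genes rose together in DM while the kinases Pdk3 and Pdk4 fell. Each is the 100 bases upstream of the RefSeq transcription start in GRCm38.p6, written 5′ to 3′ on the gene's strand. Capitals mark the CCAAT box (CCAAT, or ATTGG on the other strand), the GC box GGGCGG and the E-box CAGCTG. Pdk1 is left out because it did not pass in any comparison.
Pdha1, chrX:160138431-160138530, minus strand: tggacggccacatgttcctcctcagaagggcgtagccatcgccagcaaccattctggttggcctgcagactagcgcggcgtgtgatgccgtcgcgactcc
Pdhb, chr14:8172993-8173092, minus strand: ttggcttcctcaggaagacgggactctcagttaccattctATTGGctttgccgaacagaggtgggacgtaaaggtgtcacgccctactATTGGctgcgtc
Dlat, chr9:50659781-50659880, minus strand: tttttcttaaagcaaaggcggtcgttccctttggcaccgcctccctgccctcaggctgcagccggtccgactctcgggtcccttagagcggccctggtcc
Dld, chr12:31351472-31351571, minus strand: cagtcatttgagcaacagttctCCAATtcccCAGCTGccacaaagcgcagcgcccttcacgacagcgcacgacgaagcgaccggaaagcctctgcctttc
Pdk2, chr11:95041372-95041471, minus strand: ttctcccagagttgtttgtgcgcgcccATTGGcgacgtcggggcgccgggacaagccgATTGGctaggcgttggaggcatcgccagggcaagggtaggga
Pdk3, chrX:93832151-93832250, minus strand: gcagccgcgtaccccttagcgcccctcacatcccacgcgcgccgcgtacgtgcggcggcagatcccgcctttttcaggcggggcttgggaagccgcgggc
Pdk4, chr6:5496279-5496378, minus strand: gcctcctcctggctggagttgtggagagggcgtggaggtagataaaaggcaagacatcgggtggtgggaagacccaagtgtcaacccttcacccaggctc
Pdhb and Pdk2 each held 2 CCAAT boxes on the reverse strand. Dld held 1 CCAAT box and 1 E-box. No capitals appear in Pdha1, Dlat, Pdk3 and Pdk4, so none of these motifs is common to the genes that rose together in this stretch. Pdk2 has a second annotated promoter, which is not shown and held none of these motifs in its 100 upstream bases.

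RefSeq windows of 300 bases around the start were found for 38 of the 40 genes, and both strands were searched. The CCAAT box was present for 18 genes, or 47.4%, against 37.4% of all 32851 promoters and 42.3% of the 9888 genes on the MA arrays that have one. This motif was added after the sequences had been seen. Members and array genes were counted once if any of their promoters held a motif, while the share of all promoters counts each promoter. The GC box was present for 25 genes (65.8%, against 35.7% of promoters and 61% of array genes). The E-box was present for 5 genes, Cpt1a, Dld, Esrra, Got2 and Pdk1 (13.2%, against 16.3% and 18.4%). The NRF1 palindrome was present for Etfdh and Ppara (5.26%, against 0.971% and 1.82%). The oestrogen-related receptor element TNAAGGTCA, present in 1.28% of promoters, and the direct repeat of AGGTCA spaced by 1 base, in 0.0396%, were present in 0 of the 38. These are matches of letters and not measured binding.

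The labels were checked against marker genes on MA. Ddx5 signal in DM was 673.5, 541 and 408 with the vector and 373, 302.5 and 302.5 with the shRNA, and it fell by 0.68 ± 0.15 (adjusted p = 0.00677). In GM it was 483, 420.4 and 489 with the vector and 351, 388 and 376.5 with the shRNA (-0.31 ± 0.15, adjusted p = 0.287); the groups did not overlap in either medium, and 0 of the other 5 Ddx5 probe sets passed. The summed signal of 8 myotube markers was 274 to 439 in the 6 GM arrays, 36442 to 58410 in DM vector and 28387 to 31394 in DM shRNA. All 8 rose in DM in both kinds of cell, and 4 of 8 were lower with the shRNA in DM. Of the 8, Actn2, Mb, Myh3 and Tnnt3 were under a mean signal of 30 in both GM groups. With GM so low, the filter favours a rise in these genes, so they are a weak check of the labels. The sum of 5 cell cycle markers was 4462 to 5475 in GM, 1014 to 1618 in DM vector and 2616 to 2861 in DM shRNA, and all 5 were higher with the shRNA in DM. The 7 adipocyte markers summed to 277 to 345 in GM vector, 163 to 243 in DM vector, 331 to 382 in GM shRNA and 187 to 190.3 in DM shRNA. Of the 2 tested, Cebpa fell in both kinds of cell and Pparg in shRNA cells. Adipoq, Cidea, Fabp4, Lep and Ucp1 were under a mean signal of 30 in all groups. The 6 macrophage markers summed to 185 to 353 over all 12 arrays, with Cd68 and Ptprc under 30. Cd14 fell in both kinds of cell, while Adgre1 rose in vector cells, from a mean signal of 22.3 to 48.4. The 5 smooth muscle markers summed to 7345 to 10082 in GM and 7984 to 13157 in DM. Of the 4 tested, Cnn1 and Tagln fell in both kinds of cell, while 1 marker rose in vector cells and 1 in shRNA cells. The 6 myoblast markers summed to 9544 to 12693 in GM and 8975 to 13481 in DM, and with the shRNA in DM 3 of 6 were higher (Vim, Cdh15 and Pax7) and Des was lower. The mean log2 ratio of 3′ to 5′ probe sets of Gapdh and Actb was 0.0339 to 0.108 in GM vector, -0.0837 to 0.0300 in DM vector, 0.00997 to 0.0389 in GM shRNA and -0.0581 to 0.0158 in DM shRNA. DM vector replicate 3 correlated least with its group on MA (mean r = 0.951, against up to 0.983 elsewhere). The part of these marker and 3′ to 5′ differences in the results on the metabolic genes was not tested.

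On MA, 37 of the 40 genes were tested. In vector cells 15 rose and 7 fell from GM to DM, or 40.5% and 18.9% of those tested, while 23.9% and 25.4% of all 14367 MA probe sets tested did so. In shRNA cells 11 rose and 6 fell, against 16.3% and 17.5% of all probe sets. With the shRNA in DM 2 genes were higher and 9 lower than with the vector, against 10.7% and 6.24%, so the share of lower genes (24.3%) stood above that over the whole design and the share of higher genes (5.41%) below it. With the shRNA in GM 1 gene was higher and 1 lower, against 3.99% and 2.57%, shares close to the whole design. The change from GM to DM differed between shRNA and vector cells, tested as the interaction of medium and shRNA, in 2 genes upward and 2 downward, against 5.48% and 4.48%. Members are counted at 1 probe set per gene. For all MA genes counted so, the shares higher and lower were 23.2% and 27.2% in vector cells and 16.2% and 18.9% in shRNA cells. With the shRNA they were 12.2% and 6.67% in DM and 4.36% and 2.71% in GM, and in the interaction 6.06% and 4.6%. The median log2 change of the 37 genes was 0.23 in vector cells and 0.14 in shRNA cells on the move to DM, -0.17 with the shRNA in DM and -0.05 with the shRNA in GM; over all probe sets it was 0.00847, -0.00298, 0.05 and 0.04. Of all MA probe sets called with the shRNA, 63.1% were higher in DM and 60.8% in GM, and after centring each array on its median 47.8% and 46.7%, while 2 members were higher and 11 were lower in DM. Without DM vector replicate 3 the count lower with the shRNA in DM was 11 and the count of downward interactions was 7. These comparisons share arrays: each shRNA comparison uses groups that also enter the medium comparisons, so their values are given side by side and are not independent.

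**Figure D1:**
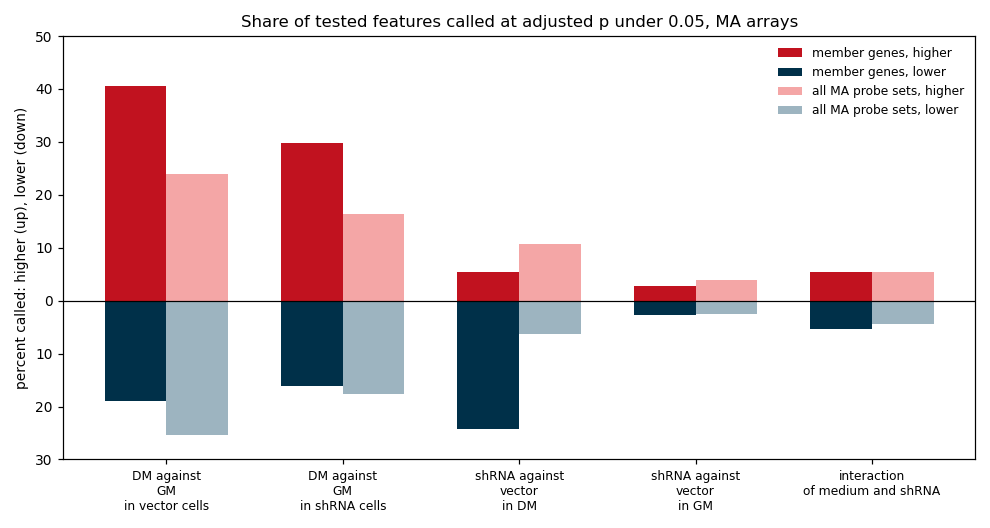
Percent of the 37 member genes and of all 14367 MA probe sets called higher (bars upward) or lower (bars downward) at adjusted p under 0.05 in each of the 5 comparisons. Members called higher in DM in vector cells make up 40.5% against 23.9% of all probe sets, and members called lower with the shRNA in DM make up 24.3% against 6.24%. At 1 probe set per gene, as members are counted, the shares of all MA genes tested are 23.2% and 6.67% (not drawn).

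All 4 subunit genes of the pyruvate dehydrogenase complex rose in DM in both kinds of cell. Of all MA genes tested, at 1 probe set each, 23.2% rose in vector cells and 16.2% in shRNA cells. In vector cells the changes ran from 0.82 to 2.01 on the log2 scale and in shRNA cells from 0.48 to 1.39. Signal of Pdha1, the catalytic E1 alpha subunit that the kinases phosphorylate, was 738.5, 703 and 768.5 in GM vector, 1444, 1338.5 and 1162 in DM vector, 937, 756.5 and 792 in GM shRNA and 1259, 1035 and 1194 in DM shRNA. The DM arrays lay above the GM arrays of the same construct, while the 2 DM groups overlapped. Pdha1 rose by 0.82 ± 0.12 (adjusted p = 4.08e-05) in vector cells, which is 1.78-fold in mean signal, and by 0.48 ± 0.12 (adjusted p = 0.00530) in shRNA cells. A second Pdha1 probe set rose by 1.13 ± 0.16 and 0.93 ± 0.16.

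Pdhb encodes the E1 beta subunit, the partner of Pdha1. Its signal was 968, 969.6 and 887 in GM vector, 2443, 2204 and 1857 in DM vector, 949, 799 and 857 in GM shRNA and 1538, 1641 and 1539 in DM shRNA. It rose by 1.18 ± 0.11 (adjusted p = 5.80e-07) in vector cells and by 0.85 ± 0.11 (adjusted p = 3.74e-05) in shRNA cells. No DM shRNA array reached the lowest DM vector array, and Pdhb was the complex gene that was lower with the shRNA in DM (-0.45 ± 0.11, adjusted p = 0.0114, 1.38-fold in mean signal). That call was lost when only the groups compared entered the fit (adjusted p = 0.0558).

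Dlat encodes the E2 dihydrolipoyl acetyltransferase that forms the core of the complex. Its signal was 156, 144 and 139 in GM vector, 411, 475 and 264 in DM vector, 152, 133 and 136 in GM shRNA and 271, 259.9 and 274 in DM shRNA. DM vector replicate 3 was the lowest array of its group and the only one inside the DM shRNA range. Dlat rose by 1.27 ± 0.17 (adjusted p = 1.70e-05) and 0.87 ± 0.17 (adjusted p = 9.61e-04), in vector and shRNA cells. The 2 dimmer Dlat probe sets changed by 0.53 ± 0.21 (adjusted p = 0.0495) and 0.21 ± 0.16 (adjusted p = 0.309) in vector cells. With the shRNA in DM the difference was -0.45 ± 0.17 (adjusted p = 0.0791); without DM vector replicate 3 it was -0.69 and passed (adjusted p = 0.00116).

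Dld, the E3 dihydrolipoamide dehydrogenase shared with the oxoglutarate dehydrogenase complex, had the highest log2 change in vector cells of the members tested on MA. Its signal was 51.3, 46.0 and 62.0 in GM vector, 407.5, 284 and 147 in DM vector, 38.8, 42.7 and 65.5 in GM shRNA and 194.5, 143 and 120.1 in DM shRNA. The GM arrays were all below the DM arrays, and the DM vector arrays were spread widely, with replicate 3 the lowest. Dld rose by 2.01 ± 0.28 (adjusted p = 3.19e-05) in vector cells, 5.26-fold in mean signal, and by 1.39 ± 0.28 (adjusted p = 0.00150) in shRNA cells. The difference with the shRNA in DM was -0.73 ± 0.28 (adjusted p = 0.0942); without DM vector replicate 3 it was -1.11 and passed (adjusted p = 0.00293).

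The 4 pyruvate dehydrogenase kinases, which inhibit the complex, moved in different directions in DM. In vector cells Pdk2 rose, Pdk3 and Pdk4 fell and Pdk1 did not pass. In shRNA cells Pdk3 and Pdk4 fell and neither Pdk1 nor Pdk2 passed.

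Pdk4, the isoform known to be raised by fasting and fatty acids in muscle, fell in DM in both kinds of cell. Its signal was 155, 173 and 149.6 in GM vector, 21.5, 23.8 and 21.6 in DM vector, 110.3, 105 and 133 in GM shRNA and 29.7, 38.5 and 15.2 in DM shRNA. All DM vector arrays lay below the signal of 30 used as the filter, and GM and DM did not overlap with either construct. Pdk4 fell by 2.22 ± 0.19 (adjusted p = 2.13e-07) in vector cells and fell by 1.65 ± 0.19 (adjusted p = 1.13e-05) in shRNA cells. The size in vector cells is not well set with DM under the filter, and ran from -2.59 to -1.53 over the alternatives. Nor is the size in shRNA cells, where the DM mean was 27.8 and the change ran from -1.95 to -1.10. In GM the 3 shRNA arrays were below the 3 vector arrays, a difference of -0.42 ± 0.19 (adjusted p = 0.231). In DM the difference was 0.16 ± 0.19 (adjusted p = 0.637).

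Pdk3 signal was 207, 170.5 and 208 in GM vector, 66.6, 56.0 and 68.5 in DM vector, 186.5, 193 and 190.1 in GM shRNA and 107, 110.3 and 95.7 in DM shRNA. The groups overlapped in GM, and in DM all shRNA arrays were above all vector arrays. Pdk3 fell by 1.41 ± 0.13 (adjusted p = 3.42e-07) in vector cells, 3.06-fold in mean signal, and fell by 0.78 ± 0.13 (adjusted p = 2.51e-04) in shRNA cells. With the shRNA in DM it was higher by 0.60 ± 0.13 (adjusted p = 0.00428). The 2 falls differed by 0.63 ± 0.18 (interaction, adjusted p = 0.0381), and this call was lost without any 1 of 8 of the 12 arrays (GM vector replicates 1 and 4, DM vector replicate 2, GM shRNA replicates 2, 3 and 4, DM shRNA replicates 1 and 2), with adjusted p = 0.0680 to 0.0984.

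Pdk2, the most widely expressed isoform of the family, moved in the opposite direction to Pdk3. Its signal was 26.3, 36.0 and 26.0 in GM vector, 98.1, 102 and 103 in DM vector, 37.0, 37.4 and 49.2 in GM shRNA and 66.2, 46.6 and 53.5 in DM shRNA. The DM vector arrays stood apart from all others, and in shRNA cells the GM and DM arrays overlapped. Pdk2 rose by 1.39 ± 0.17 (adjusted p = 6.28e-06) in vector cells, 3.44-fold in mean signal, while in shRNA cells the change was 0.32 ± 0.17 (adjusted p = 0.153). In DM it was lower with the shRNA (-0.73 ± 0.17, adjusted p = 0.00698). The medium change itself differed between the constructs by -1.07 ± 0.23 (interaction, adjusted p = 0.0100), the largest interaction among the members tested on MA, and it passed without each of the 12 arrays in turn. The GM vector arrays of Pdk2 lay near the filter of 30, so these sizes are not well set. Over the alternatives the rise in vector cells ran from 0.93 to 1.64 and the interaction from -1.25 to -0.72.

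Pdk1, a kinase known to be raised by hypoxia, had signals of 112, 78.5 and 119 in GM vector, 107, 103 and 64.3 in DM vector, 216, 173 and 143 in GM shRNA and 120.1, 109 and 144 in DM shRNA. In both media the shRNA arrays were all above the vector arrays, yet neither difference passed, with 0.70 ± 0.20 (adjusted p = 0.0513) in GM and 0.40 ± 0.20 (adjusted p = 0.201) in DM. The GM difference passed in 5 of 17 alternatives (adjusted p = 0.0150 to 0.219 over all 17) and the DM difference in 1 of 17. The GM and DM arrays overlapped with either construct. A second MA probe set gave 0.63 ± 0.26 (adjusted p = 0.178) in GM and 0.72 ± 0.26 (adjusted p = 0.0731) in DM.

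**Figure D2:**
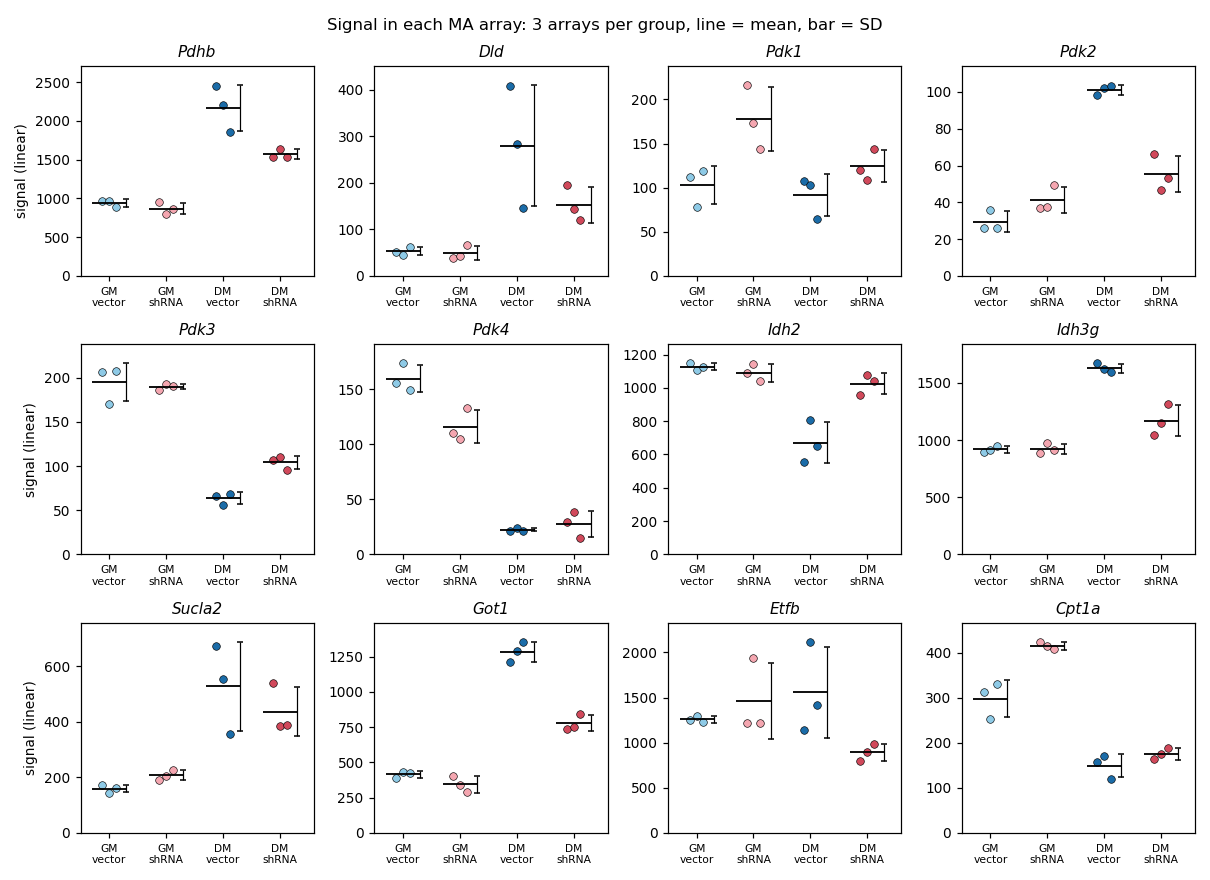
Signal of 12 member genes in each MA array, 3 arrays per group, on a linear axis that starts at 0; the line is the mean and the bar the SD. Pdk2 is at 98.1 to 103 in the DM vector arrays and at most 66.2 elsewhere, Pdk3 and Pdk4 are lower in DM than in GM, and the DM shRNA arrays of Pdhb, Idh3g and Got1 lie between their GM and DM vector arrays.

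The 12 genes of TCA cycle enzymes did not move as one in DM. In vector cells 4 rose and 2 fell (33.3% and 16.7%, against 23.2% and 27.2% of all MA genes tested, at 1 probe set each). In shRNA cells 4 rose and 1 fell (33.3% and 8.33%, against 16.2% and 18.9%). With 12 genes these shares are coarse. The 4 that rose were the same in both: Idh3a, Idh3g, Sucla2 and Suclg1. With the shRNA in DM 3 were lower, Idh3g, Dlst and Suclg1, and Idh2 was higher (25% and 8.33%, against 6.67% and 12.2%).

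Succinyl-CoA synthetase makes ATP or GTP in the cycle, and Sucla2 encodes its ATP-forming beta subunit. Sucla2 signal was 172, 145 and 162 in GM vector, 673, 555 and 356 in DM vector, 190.4, 206.5 and 227 in GM shRNA and 539, 384.5 and 388 in DM shRNA. All DM arrays were above all GM arrays. Sucla2 rose by 1.59 ± 0.19 (adjusted p = 7.59e-06) in vector cells, 3.31-fold in mean signal, and by 1.01 ± 0.19 (adjusted p = 0.00100) in shRNA cells. In DM the difference with the shRNA was -0.24 ± 0.19 (adjusted p = 0.465); without DM vector replicate 3, the lowest array of its group, it was -0.49 and passed (adjusted p = 0.0409).

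Suclg1, the alpha subunit shared by both forms of the enzyme, had signals of 698, 586.5 and 620.0 in GM vector, 1088, 1070.4 and 1230.3 in DM vector, 563, 561 and 555 in GM shRNA and 749.6, 827 and 884 in DM shRNA. No groups overlapped: GM shRNA was lowest, followed by GM vector, DM shRNA and DM vector. Suclg1 rose by 0.82 ± 0.10 (adjusted p = 1.31e-05) and by 0.54 ± 0.10 (adjusted p = 0.00113), in vector and shRNA cells, and in DM it was lower with the shRNA (-0.45 ± 0.10, adjusted p = 0.00755). Suclg2, the GTP-forming beta subunit, did not pass in any comparison (0.14 ± 0.14, adjusted p = 0.445 in vector cells and 0.30 ± 0.14, adjusted p = 0.119 in shRNA cells).

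Isocitrate dehydrogenase has an NAD-dependent form, built from Idh3a, Idh3b and Idh3g and thought of as the main oxidative step, and an NADP-dependent mitochondrial form, Idh2. Idh3g signal was 893, 913.5 and 950.3 in GM vector, 1669.5, 1622 and 1592 in DM vector, 888, 973 and 908 in GM shRNA and 1047, 1147 and 1312 in DM shRNA. The DM vector arrays were above all others, and the DM shRNA arrays lay between them and the GM arrays. Idh3g rose by 0.81 ± 0.10 (adjusted p = 8.12e-06) in vector cells and by 0.33 ± 0.10 (adjusted p = 0.0187) in shRNA cells, and in DM it was lower with the shRNA (-0.48 ± 0.10, adjusted p = 0.00391). The medium changes differed by -0.48 ± 0.14 (interaction, adjusted p = 0.0425). A second Idh3g probe set gave 0.61 ± 0.11 (adjusted p = 3.74e-04) in vector cells, -0.58 ± 0.11 (adjusted p = 0.00217) with the shRNA in DM and -0.56 ± 0.16 (adjusted p = 0.0361) for the interaction. The interaction of the first probe set was lost without any 1 of 10 arrays, all but DM vector replicate 3 and DM shRNA replicate 3 (adjusted p = 0.0615 to 0.102), and the rise in shRNA cells without GM shRNA replicate 2 or 4 or DM shRNA replicate 3 (adjusted p = 0.0542 to 0.0935).

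Idh2 ran the other way. Its signal was 1147, 1106 and 1125 in GM vector, 556, 805 and 653 in DM vector, 1089, 1143.5 and 1038 in GM shRNA and 955, 1075 and 1043.5 in DM shRNA. The DM vector arrays were below all others, and the GM shRNA arrays overlapped both GM vector and DM shRNA. Idh2 fell by 0.75 ± 0.12 (adjusted p = 1.15e-04) in vector cells, 1.68-fold in mean signal, and the change in shRNA cells was -0.09 ± 0.12 (adjusted p = 0.611). In DM it was higher with the shRNA by 0.61 ± 0.12 (adjusted p = 0.00264). The medium changes differed by 0.66 ± 0.17 (interaction, adjusted p = 0.0238); this call was lost without GM vector replicate 1 or 4, GM shRNA replicate 2 or 4, or DM shRNA replicate 2 or 3 (adjusted p = 0.0509 to 0.0687).

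Idh3a, the catalytic subunit, rose by 0.80 ± 0.11 (adjusted p = 2.68e-05) in vector cells and by 0.76 ± 0.11 (adjusted p = 8.85e-05) in shRNA cells. A dimmer Idh3a probe set fell in vector cells (-0.55 ± 0.20, adjusted p = 0.0348) and the remaining one gave -0.37 ± 0.17 (adjusted p = 0.0892), so the probe sets of Idh3a disagree. Idh3b did not pass at the probe set used (-0.03 ± 0.11, adjusted p = 0.845 in vector cells). A second Idh3b probe set fell in vector cells (-0.47 ± 0.11, adjusted p = 0.00274) and was higher with the shRNA in DM (0.45 ± 0.11, adjusted p = 0.0118).

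Cs encodes citrate synthase, which joins acetyl-CoA to oxaloacetate and is often measured as a marker of mitochondrial content. Its signal was 1804, 1575 and 1601 in GM vector, 1243, 1342 and 1533 in DM vector, 1319, 1263.5 and 1208 in GM shRNA and 1143.5, 1129.5 and 1294 in DM shRNA. The GM vector arrays were above all others. Cs fell by 0.27 ± 0.11 (adjusted p = 0.0436) in vector cells, did not pass in shRNA cells (-0.09 ± 0.11, adjusted p = 0.564), and was lower with the shRNA in GM (-0.39 ± 0.11, adjusted p = 0.0420). A second probe set rose in vector cells (0.52 ± 0.14, adjusted p = 0.00784) and the remaining one gave -0.17 ± 0.12 (adjusted p = 0.251), so no direction for Cs in DM is common to its probe sets. The fall in vector cells was lost without any 1 of the 6 arrays except DM vector replicate 3 (adjusted p = 0.0530 to 0.173), and the difference in GM without any 1 of its 6 arrays (adjusted p = 0.0793 to 0.170).

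Dlst encodes the E2 subunit of the oxoglutarate dehydrogenase complex, whose E1 subunit is Ogdh. Dlst signal was 838, 786 and 811 in GM vector, 884, 882 and 1122 in DM vector, 708.5, 649 and 661 in GM shRNA and 637, 683 and 742 in DM shRNA. The shRNA arrays were below the vector arrays in both media. Dlst was lower with the shRNA in DM (-0.47 ± 0.11, adjusted p = 0.00880), while the difference in GM was -0.27 ± 0.11 (adjusted p = 0.186), and neither medium change passed (0.23 ± 0.11, adjusted p = 0.0978 in vector cells). The call in DM was lost when only the groups compared entered the fit (adjusted p = 0.0567), and the dimmer MA probe set gave 0.01 ± 0.36 (adjusted p = 0.989) there. Ogdh gave 0.27 ± 0.12 (adjusted p = 0.0734) in vector cells and 0.30 ± 0.12 (adjusted p = 0.0662) in shRNA cells, with DM above GM in all arrays of a construct.

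Fh1, fumarase, and Mdh2, the mitochondrial malate dehydrogenase, complete the cycle. Fh1 fell in shRNA cells (-0.29 ± 0.10, adjusted p = 0.0449) and gave 0.03 ± 0.10 (adjusted p = 0.828) in vector cells; the fall was lost without any 1 of its 6 arrays (adjusted p = 0.0679 to 0.141). Mdh2 did not pass in any comparison (0.07 ± 0.11, adjusted p = 0.599 in vector cells and -0.03 ± 0.11, adjusted p = 0.867 in shRNA cells).

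The malate-aspartate shuttle carries reducing equivalents from glycolysis into mitochondria, and of its enzymes Got1 and Mdh1 rose in both kinds of cell, while Mdh2 and Got2 at the probe set used did not pass. Got1, the cytosolic aspartate aminotransferase, had signals of 388, 434 and 423 in GM vector, 1209.5, 1288 and 1354 in DM vector, 405, 340.3 and 288 in GM shRNA and 738, 752 and 847 in DM shRNA. The DM vector arrays were highest, the DM shRNA arrays lay between them and both GM groups, and no DM array overlapped another group. Got1 rose by 1.59 ± 0.12 (adjusted p = 6.25e-08) in vector cells, 3.09-fold in mean signal, and by 1.15 ± 0.12 (adjusted p = 4.43e-06) in shRNA cells. In DM it was lower with the shRNA (-0.71 ± 0.12, adjusted p = 9.69e-04).

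Mdh1, the cytosolic malate dehydrogenase, had signals of 994.5, 814 and 878.5 in GM vector, 1842, 2038 and 1768 in DM vector, 966, 1115 and 732 in GM shRNA and 1282, 1539 and 1709 in DM shRNA. Both DM groups were above both GM groups, and DM shRNA was below DM vector in all arrays. Mdh1 rose by 1.06 ± 0.15 (adjusted p = 3.22e-05) and 0.69 ± 0.15 (adjusted p = 0.00238), and the difference in DM was -0.32 ± 0.15 (adjusted p = 0.164). The 3 dimmer Mdh1 probe sets did not pass in vector cells, with changes from -0.36 to 0.09. Got2, the mitochondrial aminotransferase, gave -0.18 ± 0.13 (adjusted p = 0.248) in vector cells at the probe set used, while a second probe set rose by 0.76 ± 0.17 (adjusted p = 0.00172) in vector cells and 0.81 ± 0.17 (adjusted p = 0.00175) in shRNA cells.

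**Figure D3:**
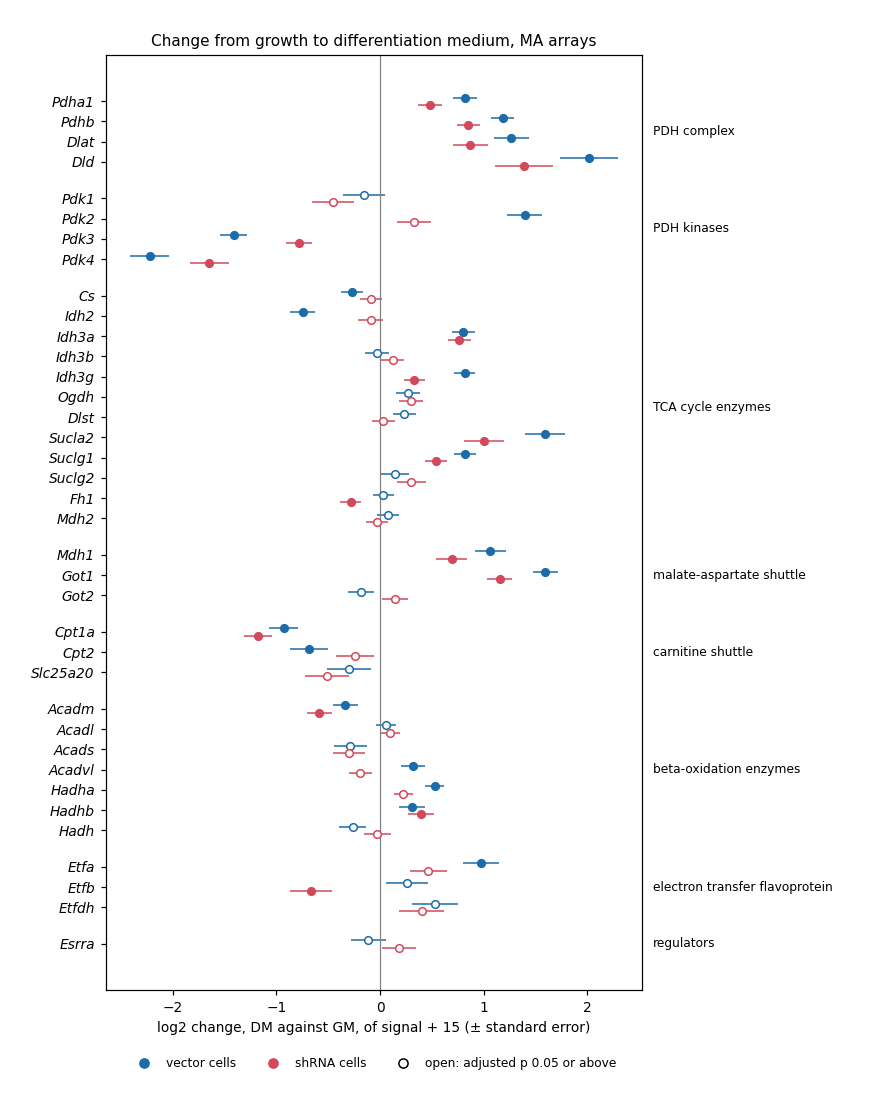
Log2 change (± standard error) of signal + 15 from GM to DM for the 37 tested members on MA, grouped by role, in vector cells and in shRNA cells; filled points have an adjusted p under 0.05. The pyruvate dehydrogenase subunits all lie right of 0 in both, from 0.48 to 2.01, and the carnitine shuttle genes all lie left of 0.

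The carnitine shuttle brings long-chain fatty acids into the mitochondrial matrix, and at the probe sets used none of its 3 tested genes rose in DM. Over all MA genes tested, 23.2% rose in vector cells and 16.2% in shRNA cells. Cpt1a, the outer-membrane palmitoyltransferase of most tissues, had signals of 312, 252 and 329 in GM vector, 158, 169.7 and 121 in DM vector, 424, 415 and 407 in GM shRNA and 163, 175 and 189 in DM shRNA. All DM arrays were below all GM arrays, and in GM all shRNA arrays were above all vector arrays. Cpt1a fell by 0.93 ± 0.14 (adjusted p = 5.21e-05) in vector cells, 1.99-fold in mean signal, and fell by 1.18 ± 0.14 (adjusted p = 1.24e-05) in shRNA cells. The difference in GM was 0.47 ± 0.14 (adjusted p = 0.0574), and it passed in 4 of 17 alternatives (adjusted p = 0.0172 to 0.281 over all 17). A dimmer Cpt1a probe set fell in both kinds of cell (-0.81 ± 0.23 and -0.98 ± 0.23). Cpt2, the inner-membrane enzyme, fell by 0.69 ± 0.18 (adjusted p = 0.00576) in vector cells and gave -0.24 ± 0.18 (adjusted p = 0.336) in shRNA cells; its second, dimmer probe set gave -0.02 ± 0.23 (adjusted p = 0.964) in vector cells. Slc25a20, the carnitine-acylcarnitine carrier, gave -0.30 ± 0.21 (adjusted p = 0.254) and -0.51 ± 0.21 (adjusted p = 0.0768), while its second probe set rose in vector cells (0.42 ± 0.15, adjusted p = 0.0337). Cpt1b, the muscle form, is named by 1 MA probe set that the annotation assigns to several genes, so no value is given for it.

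At the probe sets used, 3 of the 7 beta-oxidation enzymes rose and 1 fell in vector cells, and 1 rose and 1 fell in shRNA cells. In vector cells these are 42.9% and 14.3%, against 23.2% and 27.2% of all MA genes tested. In shRNA cells they are 14.3% and 14.3%, against 16.2% and 18.9%. Hadha and Hadhb encode the trifunctional protein, which handles long chains. Hadha signal was 696, 697 and 725 in GM vector, 957, 1076 and 1037 in DM vector, 701.5, 714 and 706 in GM shRNA and 815, 843 and 829 in DM shRNA. The DM shRNA arrays lay between the DM vector and GM arrays. Hadha rose by 0.53 ± 0.09 (adjusted p = 1.84e-04) in vector cells, gave 0.22 ± 0.09 (adjusted p = 0.0656) in shRNA cells, and was lower with the shRNA in DM (-0.30 ± 0.09, adjusted p = 0.0319). That last call was lost without any 1 of its 6 arrays except DM vector replicate 1 (adjusted p = 0.0506 to 0.106). It was also lost with only the groups compared in the fit (adjusted p = 0.128), with quantile normalization (0.0501) and without the trend (0.0715). Hadhb rose by 0.31 ± 0.12 (adjusted p = 0.0487) and 0.39 ± 0.12 (adjusted p = 0.0216), in vector and shRNA cells, at the probe set used. A dimmer MA probe set gave -0.78 ± 0.31 (adjusted p = 0.0525) and -0.15 ± 0.31 (adjusted p = 0.762), and with the mean of both the change in vector cells turned to -0.23 (adjusted p = 0.238). The Hadhb call was lost without any 1 of the 6 arrays in vector cells (adjusted p = 0.0504 to 0.200), and in shRNA cells without GM shRNA replicate 4 or DM shRNA replicate 2 or 3 (adjusted p = 0.0721 to 0.108). Hadh, which acts on shorter chains, did not pass in any comparison (-0.26 ± 0.13, adjusted p = 0.109 in vector cells).

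The acyl-CoA dehydrogenases begin each round of beta-oxidation and differ in the chain length they accept. Acadvl, for very long chains, had signals of 515, 508 and 526.5 in GM vector, 628.5, 683 and 634 in DM vector, 498, 658 and 515 in GM shRNA and 444.5, 496 and 509.8 in DM shRNA. The DM vector arrays were above the GM vector and DM shRNA arrays but overlapped GM shRNA, where replicate 3 was high. Acadvl rose by 0.32 ± 0.11 (adjusted p = 0.0321) in vector cells, gave -0.19 ± 0.11 (adjusted p = 0.227) in shRNA cells, and was lower with the shRNA in DM (-0.41 ± 0.11, adjusted p = 0.0219). The rise was lost without any GM vector array or DM vector replicate 2 (adjusted p = 0.0611 to 0.0973), and the difference in DM without DM vector replicate 2 or DM shRNA replicate 1 or 2 (adjusted p = 0.0546 to 0.0908) or with only the groups compared in the fit (adjusted p = 0.0542).

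Acadm, the medium-chain enzyme, had signals of 334, 280.1 and 361 in GM vector, 255.5, 273 and 233 in DM vector, 442, 482 and 434 in GM shRNA and 319.6, 283 and 287 in DM shRNA. The GM shRNA arrays were above all others, and DM was below GM with either construct. Acadm fell by 0.34 ± 0.12 (adjusted p = 0.0285) in vector cells and fell by 0.59 ± 0.12 (adjusted p = 0.00140) in shRNA cells. It was the member that was higher with the shRNA in GM (0.47 ± 0.12, adjusted p = 0.0292). The fall in vector cells was lost without GM vector replicate 1 or 4 or DM vector replicate 3 (adjusted p = 0.0763 to 0.125), and the difference in GM without any 1 of its 6 arrays except GM vector replicate 4 (adjusted p = 0.0676 to 0.142). Acads, for short chains, and Acadl, for long chains, did not pass in any comparison; in vector cells they gave -0.29 ± 0.16 (adjusted p = 0.149) and 0.06 ± 0.09 (adjusted p = 0.657).

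Electron transfer flavoprotein takes electrons from the acyl-CoA dehydrogenases to the respiratory chain. Etfa, its alpha subunit, had signals of 406, 295 and 402 in GM vector, 919, 769.6 and 547 in DM vector, 528, 589 and 519 in GM shRNA and 875, 744 and 668 in DM shRNA. DM was above GM with either construct, and in GM the shRNA arrays were above the vector arrays. Etfa rose by 0.97 ± 0.17 (adjusted p = 3.04e-04) in vector cells. The change in shRNA cells was 0.47 ± 0.17 (adjusted p = 0.0526). It passed in 7 of 17 alternatives (adjusted p = 0.00660 to 0.190 over all 17), among them the run without DM shRNA replicate 3 (0.55, adjusted p = 0.0485). The difference in GM was 0.56 ± 0.17 (adjusted p = 0.0716).

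Etfb, the beta subunit, did not move with Etfa. Its signal was 1252.5, 1297 and 1224 in GM vector, 1142, 2117.5 and 1416 in DM vector, 1219.5, 1943 and 1215 in GM shRNA and 795, 901 and 987 in DM shRNA. DM vector replicate 2 and GM shRNA replicate 3 were far above the other arrays of their groups, and the DM shRNA arrays were the lowest. Etfb fell by 0.67 ± 0.20 (adjusted p = 0.0200) in shRNA cells, gave 0.26 ± 0.20 (adjusted p = 0.318) in vector cells, and was lower with the shRNA in DM (-0.75 ± 0.20, adjusted p = 0.0193). The fall was lost without GM shRNA replicate 3 (-0.44) or DM shRNA replicate 1 (-0.59), with adjusted p = 0.107 and 0.0791. The difference in DM was lost without DM vector replicate 2 (-0.51) or DM shRNA replicate 1 or 2 (adjusted p = 0.0559 to 0.0915). Etfdh, the oxidoreductase that receives the electrons, gave 0.53 ± 0.22 (adjusted p = 0.0595) in vector cells and 0.40 ± 0.22 (adjusted p = 0.182) in shRNA cells.

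**Figure D4:**
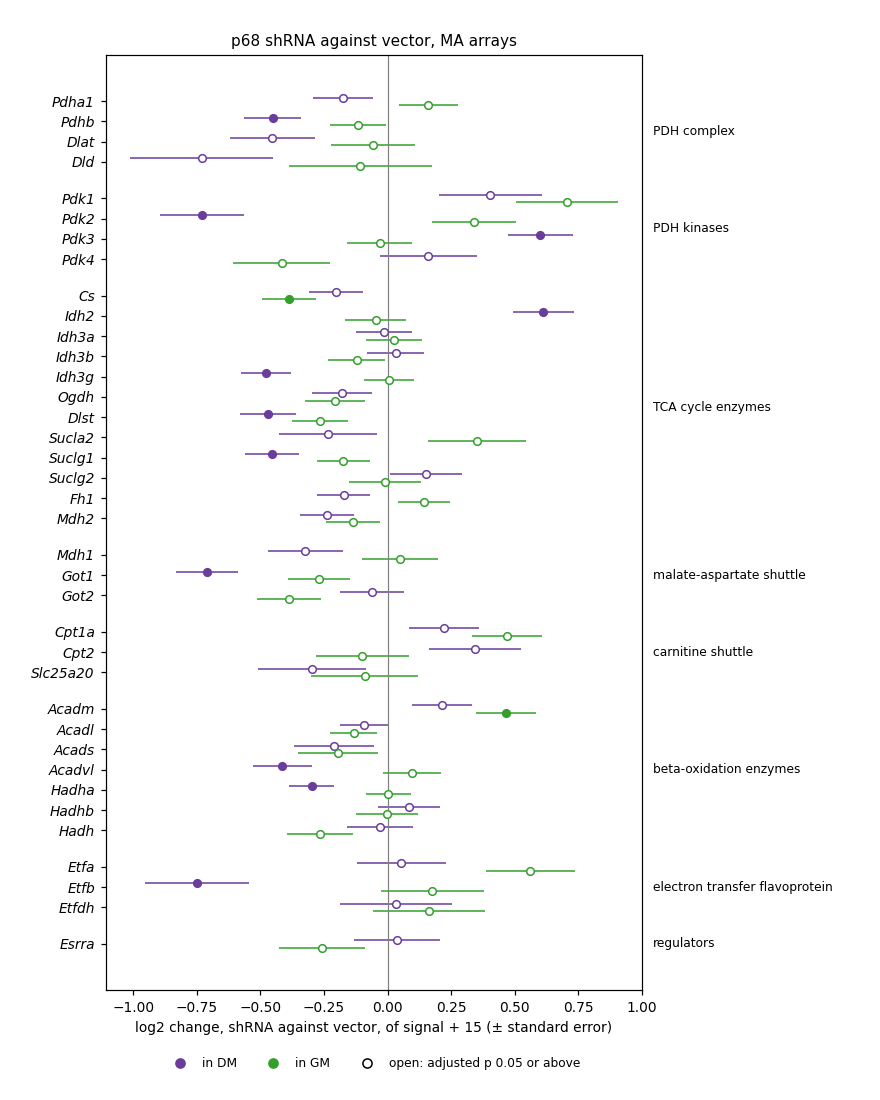
Log2 difference (± standard error) of signal + 15 between shRNA and vector cells for the 37 tested members on MA, in DM and in GM; filled points have an adjusted p under 0.05. In DM 9 filled points lie left of 0, from -0.75 to -0.30, and Pdk3 and Idh2 lie right of it at 0.60 and 0.61, while in GM only Acadm and Cs are filled.

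None of the 3 regulators passed in any test, and Ppargc1a and Ppara were dim on MA. Esrra, an orphan nuclear receptor that acts with PGC-1 coactivators on oxidative genes, had signals of 110.5, 138 and 138 in GM vector, 91.9, 118 and 147.5 in DM vector, 97.9, 123 and 95.4 in GM shRNA and 122, 135 and 107 in DM shRNA. All 4 groups overlapped, and the changes were -0.11 ± 0.17 (adjusted p = 0.606) in vector cells and 0.18 ± 0.17 (adjusted p = 0.445) in shRNA cells. On MB, the Esrra probe set had mean signals of 144.6 in GM vector, 64.0 in DM vector, 145.9 in GM shRNA and 45.5 in DM shRNA. Those changes were -0.83 and -1.38 and did not pass, and the GM vector arrays there spread from 31.3 to 223.9. Ppargc1a, which encodes PGC-1 alpha, had 5 MA probe sets and 0 of them reached the filter. At the brightest the signal was 14.2, 7.2 and 9.4 in GM vector, 24.8, 2.4 and 36.1 in DM vector, 10.5, 7.5 and 16.1 in GM shRNA and 30.7, 28.8 and 22.7 in DM shRNA, too low to rank the groups. Ppara, the fatty acid receptor, had signals of 5.8, 3.9 and 4.1 in GM vector, 3.9, 4.5 and 5.1 in DM vector, 2.7, 2.3 and 5.6 in GM shRNA and 2.6, 4.0 and 18.3 in DM shRNA on MA and was not tested there. Its 2 MB probe sets were tested and did not pass in any comparison.

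On MB 18 of the 20 member probe sets, for 14 genes, were tested, with a median residual SD of 0.52 against 0.21 on MA. Counting the brightest probe set of each gene, 0 rose and 1 fell in vector cells, where 4.21% and 5% of 19303 probe sets did so. At 1 probe set per gene, 6.18% and 7.94% of all MB genes tested did so. In the other 4 comparisons 0 passed in limma, where the shares of probe sets higher and lower were 2.27% and 2.57% in shRNA cells, 0.782% and 0.389% with the shRNA in DM, 0.207% and 0.0673% with the shRNA in GM, and 0.223% and 0.166% in the interaction. At an unadjusted p under 0.05 there were 4 genes in vector cells, 1 in shRNA cells, 2 with the shRNA in DM, 2 with the shRNA in GM and 1 in the interaction, of 14 tested. Over all MB probe sets the shares at that threshold were 20.3%, 15.1%, 10.6%, 7.22% and 8.46% in the same order. Over all MB genes tested, at 1 probe set each as for the members, they were 26.6%, 20.6%, 13.5%, 9.1% and 10.6%. The members stood at 28.6%, 7.14%, 14.3%, 14.3% and 7.14%. The gene that fell was Dlst, at an MB probe set with signals of 331, 281 and 250.4 in GM vector and 125, 129 and 194 in DM vector (-0.89 ± 0.27, adjusted p = 0.0478). All DM vector arrays were below all GM vector arrays there. Of the 2 Dlst probe sets on MA, the dimmer one gave -0.86 ± 0.36 (adjusted p = 0.0606) and the brighter one 0.23 ± 0.11 (adjusted p = 0.0978). With the shRNA in DM, the MB probe set of Dlst that fell had signals of 373, 273 and 182 (mean 276, against 149 in DM vector). That difference was opposite in sign to the lower call of Dlst on MA and did not pass. MB probe sets of Dld, Idh2, Idh3a, Sucla2 and Hadhb also had changes opposite in sign to a call on MA, and none of these changes passed.

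Other genes of the same pathways on MA moved in both directions. Of 10 tested TCA and pyruvate genes outside the 40, 4 rose in DM and 2 fell, in vector cells and likewise in shRNA cells. These are 40% and 20%. Of all MA genes tested, 23.2% and 27.2% did so in vector cells and 16.2% and 18.9% in shRNA cells. Mpc1, a subunit of the mitochondrial pyruvate carrier, rose by 1.49 ± 0.14 (adjusted p = 4.43e-07) in vector cells and 0.60 ± 0.14 (adjusted p = 0.00352) in shRNA cells, and the 2 differed by -0.89 ± 0.19 (interaction, adjusted p = 0.00948). Pcx, pyruvate carboxylase, rose by 0.77 ± 0.13 (adjusted p = 1.45e-04) and 0.72 ± 0.13 (adjusted p = 5.51e-04). Sdha, the flavoprotein of succinate dehydrogenase, rose in vector cells (0.69 ± 0.13, adjusted p = 4.90e-04), and Sdhb, its iron-sulphur subunit, was lower with the shRNA in DM (-0.38 ± 0.10, adjusted p = 0.0132) and in GM (-0.41 ± 0.10, adjusted p = 0.0208). Idh1, the cytosolic counterpart of Idh2, fell by 1.25 ± 0.23 (adjusted p = 3.98e-04) in vector cells, gave 0.20 ± 0.23 (adjusted p = 0.545) in shRNA cells and was higher with the shRNA in DM by 1.52 ± 0.23 (adjusted p = 3.99e-04). Slc25a11, the oxoglutarate carrier of the malate-aspartate shuttle, rose in vector cells (0.76 ± 0.11, adjusted p = 6.03e-05) and was lower with the shRNA in DM (-0.45 ± 0.11, adjusted p = 0.0128).

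Of 13 tested fatty acid oxidation genes outside the 40, 6 rose and 2 fell in vector cells, or 46.2% and 15.4%, against 23.2% and 27.2% of all MA genes tested. In shRNA cells 2 rose and 4 fell (15.4% and 30.8%, against 16.2% and 18.9%). With the shRNA in DM 1 was higher and 1 lower (7.69% each, against 12.2% and 6.67%). The acyl-CoA synthetases, which activate fatty acids, diverged: Acsl6 rose in both kinds of cell, Acsl4 rose by 1.27 ± 0.33 and 1.58 ± 0.33, and Acsl5 fell by 2.12 ± 0.12 (adjusted p = 1.70e-09) and fell by 1.25 ± 0.12 (adjusted p = 1.26e-06), in vector and shRNA cells. Acsl6 signal was 8.9, 3.1 and 2.2 in GM vector, 152, 165.5 and 88.8 in DM vector, 22.7, 12.5 and 4.7 in GM shRNA and 99.5, 63.4 and 86.7 in DM shRNA. All 6 GM arrays were under 30, so Acsl6 passed the filter through the DM arrays alone (adjusted p = 4.88e-07 and 1.09e-04) and no size is given for its change. Acaa2, the thiolase that ends each round, fell by 0.69 ± 0.10 (adjusted p = 5.14e-05) and fell by 1.28 ± 0.10 (adjusted p = 2.43e-07) and was lower with the shRNA in DM (-0.81 ± 0.10, adjusted p = 8.39e-05). Decr1, needed for unsaturated fatty acids, rose in vector cells (0.30 ± 0.11, adjusted p = 0.0340) and fell in shRNA cells (-0.43 ± 0.11, adjusted p = 0.00743), and the difference passed (interaction -0.74 ± 0.16, adjusted p = 0.00821). Echs1, enoyl-CoA hydratase, gave 0.25 ± 0.11 (adjusted p = 0.0822) in vector cells, fell in shRNA cells (-0.60 ± 0.11, adjusted p = 8.56e-04) and was higher with the shRNA in GM (0.63 ± 0.11, adjusted p = 0.00470). Of 7 tested regulators outside the 40, Tfam, which maintains mitochondrial DNA, rose in vector cells (0.59 ± 0.20, adjusted p = 0.0208), Nrf1 fell in vector cells (-0.58 ± 0.17, adjusted p = 0.00963) and Ppargc1b, the PGC-1 beta coactivator, rose in shRNA cells (0.72 ± 0.12, adjusted p = 4.61e-04) and was higher with the shRNA in DM (0.44 ± 0.12, adjusted p = 0.0234).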

How the data were processed

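Total RNA of C2C12 cells had been hybridised to 12 MA and 12 MB arrays. The deposited value is a linear intensity for each probe set, made with MAS5 per the submitters' processing notes; the sources used here give neither its version and settings nor detection calls. These values were already scaled, since the mean after trimming 2% at both ends was 150.1 on MA and 150.0 on MB. No arrays were identical.

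Gene symbols came from the platform annotation. Of 22626 MA probe sets 20380 had 1 symbol, 691 several and 1555 none; of 22511 MB probe sets 14661, 245 and 7605. RefSeq tables hold 12377 of 12393 MA symbols and 9573 of 9607 MB symbols. Control probe sets (64 per design) were left out.

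Testing required a signal of 30 or more in at least 3 of 12 arrays (14367 on MA, 19303 on MB). On log2(signal + 15), limma 3.58.1 in R 4.3.3 fitted 4 group means per design (8 residual degrees of freedom) with eBayes and a mean-variance trend. P-values were adjusted by Benjamini-Hochberg over each design and comparison, and tested at 0.05. The pseudocount makes changes of dim genes smaller. An exact permutation test of 3 against 3 arrays cannot go below p = 0.1. Arrays give no molecule counts, so their number limits the precision. The scripts were tested on simulated data.

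Full values are given for the 12 largest changes that passed between media in vector cells and between shRNA and vector in DM, and always for Pdk1 to Pdk4, Cs, Cpt1a, Cpt1b, Ppara, Ppargc1a and Esrra; other members are named with their change. Array values of Acadm, the member higher with the shRNA in GM, and of Dlst on MB are also given, chosen after their values were seen. The members, the other pathway genes, the marker lists and this rule were chosen with earlier results of these data known. Alternatives changed the pseudocount, filter, normalization, array set, trend, weights, replicate block and the probe set rule, and left out each array in turn.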

Additional observations from a re-analysis of the deposited data

Results flagged for a closer look

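In 4 members the change from GM to DM differed between shRNA and vector cells by the interaction test of limma, with 3 arrays in each group. For Pdk2 the change was 1.39 ± 0.17 in vector cells and 0.32 ± 0.17 in shRNA cells, a difference of -1.07 ± 0.23 (adjusted p = 0.0100). Its GM vector arrays lay near the filter of 30, and over the alternatives the difference ran from -1.25 to -0.72. For Pdk3 the 2 changes were -1.41 ± 0.13 and -0.78 ± 0.13, a difference of 0.63 ± 0.18 (adjusted p = 0.0381). For Idh2 they were -0.75 ± 0.12 and -0.09 ± 0.12, a difference of 0.66 ± 0.17 (adjusted p = 0.0238). For Idh3g they were 0.81 ± 0.10 and 0.33 ± 0.10, a difference of -0.48 ± 0.14 (adjusted p = 0.0425). In each of the 4 the change was smaller in size in shRNA cells. Among all MA probe sets 5.48% were called upward and 4.48% downward in this test, close to the share of the members. With single arrays left out, the Pdk2 call passed each time. The Pdk3 call was lost without any 1 of 8 arrays (adjusted p = 0.0680 to 0.0984), that of Idh2 without any 1 of 6 (adjusted p = 0.0509 to 0.0687) and that of Idh3g without any 1 of 10 (adjusted p = 0.0615 to 0.102).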

How the results depend on the processing

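The counts of members higher and lower in DM in vector cells and in shRNA cells, and the count higher with the shRNA in DM, stayed within 1.5 times in each alternative run other than leaving out single arrays. The 9 lower with the shRNA in DM became 5 when only the groups compared entered the fit, with Pdhb, Dlst, Acadvl and Hadha lost. With the shRNA in GM, the 1 higher gene became 3 at a pseudocount of 50 or a filter of 100, 0 with median centring or without the trend, 4 with only the groups compared or with array weights, and 2 with the replicate block or the mean of probe sets. The 1 lower gene became 0 without a filter, without the trend or with the mean of probe sets, and 2 with quantile normalization, only the groups compared or array weights. Of the interactions, the 2 upward became 1 at a pseudocount of 50, without a filter, with the replicate block or without the trend. The 2 downward became 1 without a filter, with median centring, with the replicate block or without the trend, 10 with array weights and 4 with the mean of probe sets. Leaving out 1 array at a time gave 13 to 15 higher and 5 to 8 lower in vector cells, 9 to 11 and 4 to 5 in shRNA cells, 2 to 3 and 6 to 11 with the shRNA in DM, 0 to 1 and 0 to 0 with the shRNA in GM, and 0 to 2 and 1 to 7 for the interaction; both 11 and 7 came without DM vector replicate 3. With the mean of all probe sets of a gene, 3 calls in vector cells turned sign and did not pass: Cs to 0.025 (adjusted p = 0.873), Hadhb to -0.23 (adjusted p = 0.238) and Idh3a to -0.041 (adjusted p = 0.832); Mdh1 (0.12) and Cpt2 (-0.35) no longer passed there, Dlst no longer passed with the shRNA in DM (-0.23), Cs with the shRNA in GM (-0.21), and Mdh1 (0.078), Idh3a (0.043), Idh3g (0.19) and Hadhb (0.12) in shRNA cells. Over single genes, 1567 of 1732 alternative values kept direction and side of the threshold, 125 lost it, 37 gained it and 3 turned sign. In 39 of the 1567 the sign changed where neither value passed. Of 17 alternatives each, Etfa passed in 7, Hadha in 4 and Pdk1 in 2 in shRNA cells, and Etfb in 1 in vector cells. With the shRNA in GM, Pdk1 passed in 5, Cpt1a in 4 and Etfa in 3. With the shRNA in DM, Dld passed in 4, Dlat in 3, Sucla2 in 2, Pdk1 in 1 and Mdh1 in 1. The replicate numbers were not taken to pair the arrays: on MA, the 3 same-numbered pairs of DM shRNA and DM vector had correlations of deviations from -0.139 to 0.278, although the 2 same-numbered pairs of DM and GM vector had 0.166 and 0.293. With the replicate block the calls of Acadm, Acadvl, Cs and Hadhb in vector cells, Fh1 in shRNA cells, Cs with the shRNA in GM, and the Pdk3 (0.60, adjusted p = 0.0788) and Idh3g (-0.48, adjusted p = 0.0696) interactions no longer passed, while Dld with the shRNA in DM and Etfa with the shRNA in GM did, and the block changed no count other than those given here by over 1.5 times. Without the trend, the calls of Acadvl, Cs and Hadhb in vector cells and Fh1 in shRNA cells were lost. So were Acadm and Cs with the shRNA in GM, Hadha with it in DM, and the Idh2 and Idh3g interactions. Median centring ended Acadvl, Cs and Hadhb in vector cells, Hadhb and Idh3g in shRNA cells, Acadm in GM and the Idh3g interaction. Quantile normalization ended Fh1 in shRNA cells and Hadha with the shRNA in DM. The cause of these shifts was not tested. On MB the larger spread (0.52) limits what can pass, and Ppargc1a and Ppara on MA were too dim to be tested. A fit of only the groups compared cannot give the interaction, and genes outside the 40 were not recomputed.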
